A study of Mus musculus with 24 samples.

Results

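The 10 genes described here encode the proteins and regulators by which bone matrix is usually recognised, and they are Col1a1, Col1a2, Bglap, Bglap2, Sparc, Sp7, Ibsp, Dmp1, Phex and Postn. They were chosen by symbol from the 52178 genes of the count table, and all 10 were found. They were read in 24 RNA-seq libraries from C57/BL6 mice, in 6 groups of 4. Hip caps, which are the cartilage of the femoral head, came from male mice aged 4 weeks, with the 2 caps of a mouse pooled in each sample and, by the study's methods, without the bone beneath. Metatarsals came from embryos at embryonic day 15 of unrecorded sex, with 6 bones pooled in each sample and no record of whether the samples came from separate litters. Explants of each tissue were cultured for 24 h, held for 1 h at 0 MPa (control), 5 MPa or 50 MPa of hydrostatic pressure, and cultured for a further 24 h, each tissue in its own medium. No animal carried an allele or received an agent, and age, anatomical site and medium differed between the tissues, as sex may have, so their parts in a tissue difference cannot be told apart. By the assignment used here, most metatarsal libraries at 0 and 50 MPa were also in another sequencing run than the hip caps used at those pressures.

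Bone matrix is laid down by osteoblasts as fibres of type I collagen, which is built from chains encoded by Col1a1 and Col1a2, and mineral is then deposited among the fibres. SPARC (osteonectin) binds collagen and calcium, the bone sialoprotein encoded by Ibsp and the protein encoded by Dmp1 are acidic phosphoproteins of mineralizing matrix, and Bglap and Bglap2 encode osteocalcin, a late product of osteoblasts. Sp7 (osterix) is the transcription factor that osteoblasts require downstream of Runx2, Phex is a membrane peptidase that acts in phosphate balance and mineralization, and Postn (periostin) is made in the periosteum and other fibrous tissue. Several of them are not confined to bone. Hypertrophic chondrocytes make bone sialoprotein and osterix, chondrocytes make SPARC, and fibroblasts of the perichondrium and of tendon make type I collagen and periostin.

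Bglap and Bglap2 are near copies of each other, which decides how far their counts can be read. Their coding sequences, from the GENCODE annotation (release M21, GRCm38) and without the stop codon, are shown because they differ at 4 of 285 bases, which are printed in capitals.
Bglap: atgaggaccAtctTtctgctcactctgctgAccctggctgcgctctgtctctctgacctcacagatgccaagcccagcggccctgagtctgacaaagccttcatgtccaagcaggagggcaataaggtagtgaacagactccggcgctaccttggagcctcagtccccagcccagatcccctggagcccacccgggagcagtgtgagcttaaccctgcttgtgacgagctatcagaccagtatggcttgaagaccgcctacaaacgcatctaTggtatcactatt
Bglap2: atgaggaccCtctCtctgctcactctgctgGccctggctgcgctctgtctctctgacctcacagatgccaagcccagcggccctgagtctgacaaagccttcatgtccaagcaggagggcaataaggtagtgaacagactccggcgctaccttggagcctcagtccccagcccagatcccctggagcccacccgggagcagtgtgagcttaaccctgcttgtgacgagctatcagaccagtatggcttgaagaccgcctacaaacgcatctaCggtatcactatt
The longest stretch without a difference ran for 241 bases, and 98.6% of the positions were identical. Over the whole transcripts, 80.5% of the 31-base words of Bglap and 95.2% of those of Bglap2 also occurred in other genes, against at most 1.4% for any of the other 8 genes. The split of reads between Bglap and Bglap2 is therefore uncertain, and the sum of the pair is given with the levels of Bglap.

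The 250 bases before the start of transcription were available for 7 of the 10 genes from the RefSeq promoter table (GRCm38.p6), as 9 windows. The windows of Bglap, Ibsp and Dmp1, which were higher in hip caps, and of Postn, which was higher in metatarsals, are printed because they are the member windows that hold a match, with each match in capitals. The words searched on either strand were TGTGGT with its complement ACCACA, the core bound by RUNX factors, and TATAAA with its complement TTTATA, the TATA box, and the 2 motifs share no bases in these windows.
Bglap, chr3:88384467-88384716, minus strand: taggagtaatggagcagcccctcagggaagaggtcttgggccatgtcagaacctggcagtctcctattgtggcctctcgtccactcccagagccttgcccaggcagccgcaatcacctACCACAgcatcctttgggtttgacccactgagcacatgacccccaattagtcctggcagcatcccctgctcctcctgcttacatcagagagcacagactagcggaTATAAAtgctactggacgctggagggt
Dmp1, chr5:104202367-104202616, plus strand: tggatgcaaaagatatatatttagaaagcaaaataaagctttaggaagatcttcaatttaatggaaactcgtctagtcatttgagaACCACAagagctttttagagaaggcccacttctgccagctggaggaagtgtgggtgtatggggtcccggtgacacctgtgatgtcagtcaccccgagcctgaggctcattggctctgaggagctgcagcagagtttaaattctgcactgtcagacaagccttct
Ibsp, chr5:104299037-104299286, plus strand: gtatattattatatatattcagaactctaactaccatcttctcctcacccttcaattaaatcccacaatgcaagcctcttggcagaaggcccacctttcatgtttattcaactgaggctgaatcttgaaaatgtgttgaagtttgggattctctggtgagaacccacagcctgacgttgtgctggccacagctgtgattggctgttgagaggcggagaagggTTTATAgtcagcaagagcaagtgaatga
Postn, chr3:54360857-54361106, plus strand: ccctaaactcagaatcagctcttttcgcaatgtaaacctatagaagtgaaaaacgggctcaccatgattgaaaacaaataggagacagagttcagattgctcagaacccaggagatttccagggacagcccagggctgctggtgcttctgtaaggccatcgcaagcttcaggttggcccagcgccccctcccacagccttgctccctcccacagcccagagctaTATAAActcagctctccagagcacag
The RUNX core was found in 2 of the 9 windows, 132 bases before the start of Bglap and 164 bases before that of Dmp1, and in 14% of 32851 windows of all genes. The TATA box was found in 3 windows, 27 bases before the start of Bglap, 28 before that of Ibsp and 26 before that of Postn, and in 12.4% of all windows. Postn and Dmp1 each had a further window without a match. These are matches of letters and not measured binding.

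Library totals ran from 4185557 to 25104484 counts. Levels are given as CPM, counts brought to a common library size after TMM scaling. That scaling assumes that most genes do not differ between libraries. Its factors ran from 0.427 to 1.117 in the 10 hip caps used and from 1.079 to 1.544 in the 12 metatarsals. By library sizes alone, hip cap over metatarsal had all-gene medians of -0.96, -0.70 and -0.90 (log2) at 0, 5 and 50 MPa. The size of each tissue difference in level therefore rests on that assumption. Hip cap control replicate 4 and hip cap 50 MPa replicate 2 were kept out of the tests, so n is 3 in these groups and 4 in the others unless stated. The study left out the same libraries because they stood apart in clustering. The quasi-likelihood test of edgeR was run over 21283 genes with batch terms for library type and sequencing run and a threshold of 0.05 on the Benjamini-Hochberg adjusted p-value, and 9 of the 10 genes passed the filter on low counts. The hip cap controls and 50 MPa hip caps used were all in 1 sequencing run and the 5 MPa hip caps, with the excluded control replicate 4, in the other, so run and pressure are told apart only through metatarsal control replicate 1 and metatarsal 50 MPa replicate 4. All other metatarsal libraries were in the run of the 5 MPa hip caps. The tissue comparisons at 0 and 50 MPa therefore also depend on the run term and on those same metatarsal libraries. At 5 MPa the libraries of both tissues were all in 1 run. By the labels, the libraries used from 50 MPa hip caps were all unstranded and those from 5 MPa hip caps all stranded, with 1 unstranded library among the 3 controls, while the study's methods describe the libraries without exception as strand specific. The assignment of libraries to runs, 9 in 1 run and 15 in the other, was read from a picture. It differs from the split between sequencing kits in the study's methods and is uncertain, and the batch terms rest on it.

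The labelled cartilage was checked against its defining genes. Of 12 chondrocyte genes all 12 were higher in hip cap controls, with summed levels of 52010 to 82830 CPM against 2102 to 5488 CPM in metatarsal controls. Col2a1, the chain of type II collagen, had a mean of 41910 CPM in hip cap controls and 1391 CPM in metatarsal controls. The 8 skeletal muscle genes went the other way, with sums of 7.88 to 12.3 CPM in hip cap controls and 1007 to 2510 CPM in metatarsal controls, and all 8 were lower in hip caps. These are bulk samples, in which fewer cells of a type and less RNA per cell cannot be told apart.

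A library that was kept also stood apart. Hip cap 5 MPa replicate 3 lay above the other 3 libraries of its group for 9 of 9 osteoclast genes, 5 of 5 endothelial genes and 5 of 5 macrophage genes that reached 1 CPM, and below them for 12 of 12 chondrocyte genes. It was above the others for 38.1% of 15973 genes and below them for 37.8%. The excluded hip cap control replicate 4 was alike in this, with 9 of 9 osteoclast genes above and 12 of 12 chondrocyte genes below the other controls. It was above them for 31.5% of 15747 genes and below them for 41.7%. In the excluded hip cap 50 MPa replicate 2, 11 of 12 chondrocyte genes were below its group. Its osteoclast genes differed from that pattern, with 7 of 9 below and 1 above. That library was below its group for 47.2% of 16442 genes and above it for 32.4%. The part of these cells in the results was not tested, and values without the kept library are given beside several of the results.

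In the absence of pressure, the 10 genes did not go one way between the tissues. Sparc, Ibsp, Sp7, Dmp1 and Bglap were higher in hip caps, and Postn and Col1a1 were higher in metatarsals. Thus 5 of the 9 tested genes passed the threshold upwards and 2 downwards, where 31% of all genes tested passed it (14.6% upwards and 16.4% downwards). The libraries of the tissues did not overlap for 8 of the 10 genes, against 42.4% of all genes tested. The median log2 fold change of the 9 was 2.76 against -0.08 over all genes, it stayed at 2.76 with Bglap set to its lower bound, and it was 1.59 without Bglap. The plot of levels shows the 10 genes in each library.

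**Figure D1:**
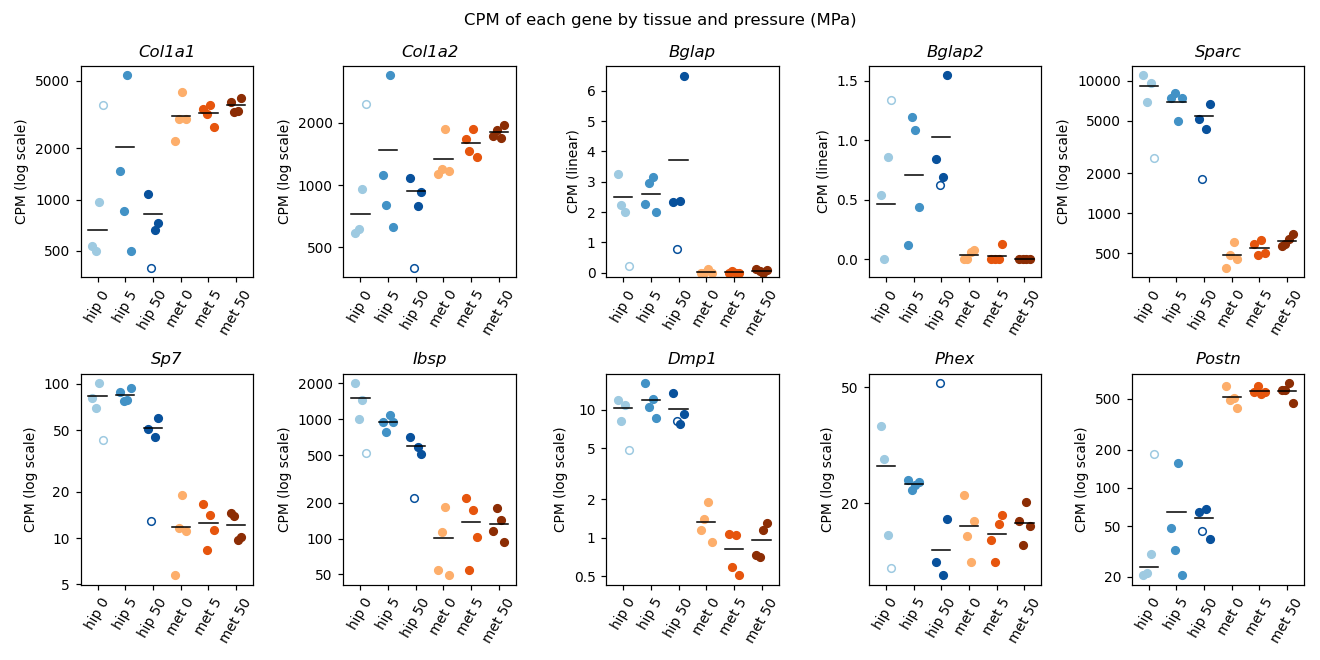
CPM of each gene (y axis, log scale except for Bglap and Bglap2) in the 6 groups of tissue and pressure in MPa (x axis); points are libraries, open points are the 2 excluded libraries, and lines are means of the libraries used. Sparc, Sp7, Ibsp, Dmp1 and Bglap lie higher in every used hip cap library than in every metatarsal library, Postn lies lower, and the high Col1a1 point at hip 5 is replicate 3 with 5362 CPM.

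Among the 10 genes, Sparc (ENSMUSG00000018593) had the highest level per kilobase of transcript in hip caps, with a median of 3108 CPM per kb over 10 libraries. Its levels were 10943, 6953 and 9642 CPM in hip cap controls and 388, 482, 602 and 454 CPM in metatarsal controls. The groups did not overlap, and the lowest hip cap control lay far above the highest metatarsal. The log2 fold change was 4.34 (SE 0.33, adjusted p = 8.86e-09 from edgeR), which is 20.2-fold. It was 3.66 at 5 MPa (SE 0.22) and 3.07 at 50 MPa (SE 0.33), each past the threshold.

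Ibsp (ENSMUSG00000029306), the sialoprotein gene, had 2006, 1012 and 1456 CPM in hip cap controls and 54.5, 114, 185 and 49.3 CPM in metatarsal controls. The metatarsals varied more among themselves than the hip caps did in proportion, but all 4 lay below every hip cap. For Ibsp the log2 fold change was 4.61 (SE 0.64, adjusted p = 3.42e-05 from edgeR). At 5 MPa it was 2.77 (SE 0.41) and at 50 MPa it was 2.81 (SE 0.62, adjusted p = 0.00338), and without metatarsal 50 MPa replicate 4 the last was 3.12 with an adjusted p of 0.113. With all 24 libraries it was 2.10, which did not pass (adjusted p = 0.0805).

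Dmp1 (ENSMUSG00000029307), which is made mainly by osteocytes and odontoblasts, was a weakly expressed gene in either tissue. Hip cap controls had 12, 8.12 and 10.9 CPM and metatarsal controls had 1.15, 1.39, 1.89 and 0.926 CPM, with no overlap. Its log2 fold change was 2.76 (SE 0.47, adjusted p = 0.000147 from edgeR), 3.87 at 5 MPa (SE 0.31) and 3.14 at 50 MPa (SE 0.48).

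Osteocalcin was close to the limit of detection. Bglap (ENSMUSG00000074483) had 12, 14 and 21 counts in hip cap controls and 0, 0, 2 and 0 counts in metatarsal controls. None of the 12 metatarsal libraries held more than 2 counts. Against a floor of 3 counts per metatarsal library its mean of 2.50 CPM was at least 8.78-fold higher in hip cap controls (adjusted p = 0.00283 from edgeR), and it was at least 17.2-fold higher at 5 MPa and 20.1-fold at 50 MPa. The call was lost at 0 MPa without metatarsal control replicate 1 (adjusted p = 0.129) and at 50 MPa without metatarsal 50 MPa replicate 4 (adjusted p = 0.182). Bglap2 had 2, 0 and 9 counts in hip cap controls and at most 3 counts in any metatarsal library, and it did not pass the filter on low counts, so it was not tested. Without that filter it was tested and passed between the tissues at 5 and 50 MPa. Summed over Bglap and Bglap2, the hip caps had 14 to 82 counts, with a median of 35, and the metatarsals had 0 to 3. The sums did not overlap either.

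The transcription factor Sp7 (ENSMUSG00000060284) had 80.7, 70 and 101 CPM in hip cap controls and 5.74, 11.6, 18.9 and 11.2 CPM in metatarsal controls. No metatarsal library at any pressure reached the lowest hip cap library used, at 45 CPM. On the log2 scale the fold change was 3.50 (SE 0.32, adjusted p = 7.78e-08 from edgeR), and it was 2.75 (SE 0.21) at 5 MPa and 2.47 (SE 0.32) at 50 MPa.

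Phex (ENSMUSG00000057457) was the tested member whose log2 fold change between the tissues at 0 MPa was smallest in absolute size, whatever its sign. Hip cap controls had 36.7, 28.3 and 15.6 CPM and metatarsal controls had 21.4, 15.5, 12.6 and 17.4 CPM, and the groups overlapped. A log2 fold change of 0.41 (SE 0.23, adjusted p = 0.185 from edgeR) did not pass the threshold. At 5 MPa, where the hip caps lay between 22.1 and 24.1 CPM and did not overlap with the metatarsals, it did (0.57, SE 0.16, adjusted p = 0.00786), but not with all 24 libraries (0.57, adjusted p = 0.228). At 50 MPa it was -0.17 (SE 0.23, adjusted p = 0.689). Its direction at 5 MPa also turned with the scaling, since by library sizes alone, under which the median of all genes moved from -0.08 to -0.70, it was -0.06. By library sizes alone the value at 50 MPa was -1.16 and passed (adjusted p = 0.00793 from edgeR).

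Type I collagen stood apart from these. Col1a1 (ENSMUSG00000001506) had 530, 496 and 971 CPM in hip cap controls and 2217, 2979, 4283 and 2980 CPM in metatarsal controls, without overlap. The log2 fold change was -2.07 (SE 0.64, adjusted p = 0.0205 from edgeR), and it was -2.30 at 50 MPa (SE 0.67, adjusted p = 0.0212). Each of these calls was near the threshold. The first was lost when any hip cap control, metatarsal control replicate 1 or metatarsal 50 MPa replicate 4 was left out (-2.00 to -2.13, adjusted p from 0.0549 to 0.286). The second was lost without hip cap 50 MPa replicate 3 or 4 or without metatarsal 50 MPa replicate 4 (-2.21 to -2.43, adjusted p from 0.0605 to 0.287). With all 24 libraries the value at 0 MPa was -1.08 (adjusted p = 0.153), where hip cap control replicate 4 had 3615 CPM, and that at 50 MPa was -2.05 (adjusted p = 0.05 after rounding, over the threshold). The first call was also lost without the filter on low counts (adjusted p = 0.0759), as was the second (adjusted p = 0.0748).

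At 5 MPa the hip caps held 1478, 851, 5362 and 495 CPM of Col1a1, of which replicate 3 was the highest value in the series. Against metatarsals the log2 fold change was -0.65 (SE 0.47, adjusted p = 0.301 from edgeR). Without replicate 3 it was -1.69 with an adjusted p of 5e-05, and by library sizes alone it was -1.31 with an adjusted p of 0.0319.

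Col1a2 (ENSMUSG00000029661), the partner chain, had 585, 615 and 962 CPM in hip cap controls and 1133, 1191, 1871 and 1175 CPM in metatarsal controls. The groups did not overlap, but the log2 fold change of -0.84 (SE 0.49, adjusted p = 0.206 from edgeR) did not pass the threshold. It was -0.10 (SE 0.36) at 5 MPa and -1.12 (SE 0.52) at 50 MPa, neither past it. The result also depended on the scaling. By library sizes alone the value was -1.77 at 0 MPa and -2.11 at 50 MPa, both past the threshold (adjusted p = 0.00598 and 0.00475 from edgeR). Without hip cap 5 MPa replicate 3 the values were -0.85, -0.84 and -1.15 at 0, 5 and 50 MPa, and all passed (adjusted p = 0.0108, 0.00216 and 0.00249).

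Postn (ENSMUSG00000027750) was the member with the greatest excess in metatarsals. Hip cap controls had 20.7, 21.6 and 30.2 CPM and metatarsal controls had 629, 489, 511 and 426 CPM. The log2 fold change was -4.43 (SE 0.62, adjusted p = 4.5e-05 from edgeR), which is 21.6-fold lower in hip caps. It was -3.15 (SE 0.47) at 5 MPa and -3.35 (SE 0.64) at 50 MPa, each past the threshold. Without hip cap 5 MPa replicate 3 the value at 5 MPa was -4.02. The highest hip cap library used, 5 MPa replicate 3 at 158 CPM, was below the lowest metatarsal library at 426 CPM.

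With pressure the 7 genes that passed at 0 MPa kept their direction between the tissues. At 5 MPa 6 of the 9 genes were higher and 1 was lower in hip caps, where 38.1% of all genes tested passed (18.8% upwards and 19.2% downwards), and at 50 MPa 5 were higher and 2 were lower, where 20.4% passed (10.6% upwards and 9.86% downwards). The median log2 fold changes of the 9 were 2.75 and 2.47, against -0.08 and -0.01 over all genes. The tissues did not overlap for 7 of the 10 genes at 5 MPa and for 9 at 50 MPa, against 40.8% and 39.9% of all genes tested. Without hip cap 5 MPa replicate 3 the number past the threshold was 8 at 0 MPa, 9 at 5 MPa and 8 at 50 MPa.

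**Figure D2:**
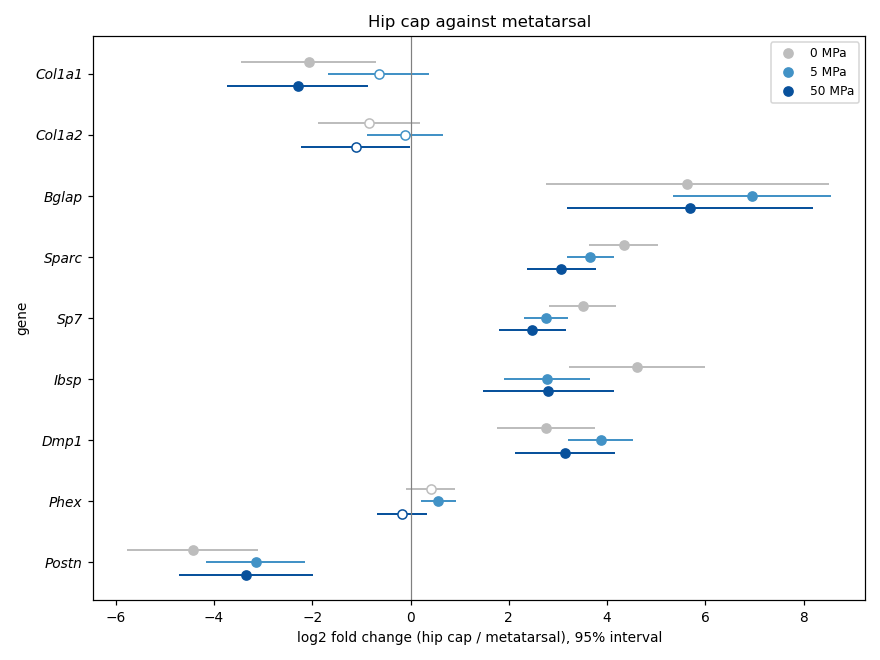
Log2 fold change of hip cap over metatarsal (x axis, lines are 95% intervals) for the 9 tested genes (y axis) at 0, 5 and 50 MPa; filled points passed the threshold. Bglap, Sparc, Sp7, Ibsp and Dmp1 lie to the right of 0 and Postn to the left at each pressure, and the filled Bglap points rest on at most 2 counts in each metatarsal library.

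The balance of Col1a1 and Col1a2 was itself different between the tissues. Per library, the ratio of Col1a2 to Col1a1 counts ran from 0.633 to 1.28 in the 10 hip caps and from 0.394 to 0.562 in the 12 metatarsals, without overlap. On the log2 scale the mean was 0.02 ± 0.34 (SD, n = 10) in hip caps and -1.07 ± 0.16 (SD, n = 12) in metatarsals, a difference of 1.09 (two-sided permutation test over 100000 resamples, p = 1e-05, the smallest they can give). Within a pressure the difference was 1.35 at 0 MPa, 0.80 at 5 MPa and 1.19 at 50 MPa, each with p = 0.03 in the exact permutation test, the smallest that these numbers of libraries allow. The lowest ratio in hip caps, 0.633, belonged to 5 MPa replicate 3, and the excluded control replicate 4 had 0.681. The libraries of the tissues thus fell into separate ranges on this ratio with the 2 excluded ones added. The ratio needs no scaling between libraries, but it depends on how reads were assigned to the transcripts of each gene. The permutation tests had no terms for sequencing run or library type. By the assignment used here, only at 5 MPa, where the difference was 0.80, were the libraries of both tissues in the same run and all stranded.

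Set against type II collagen, the type I chain was a minor transcript in hip caps and the greater in metatarsals. The counts of Col1a1 were between 1.04% and 6.26% of those of Col2a1 in 9 hip cap libraries and 37.2% in 5 MPa replicate 3, and they were 55.8% in the excluded control replicate 4. In metatarsals they were between 164% and 398%. These shares compare counts and are not divided by transcript length.

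**Figure D3:**
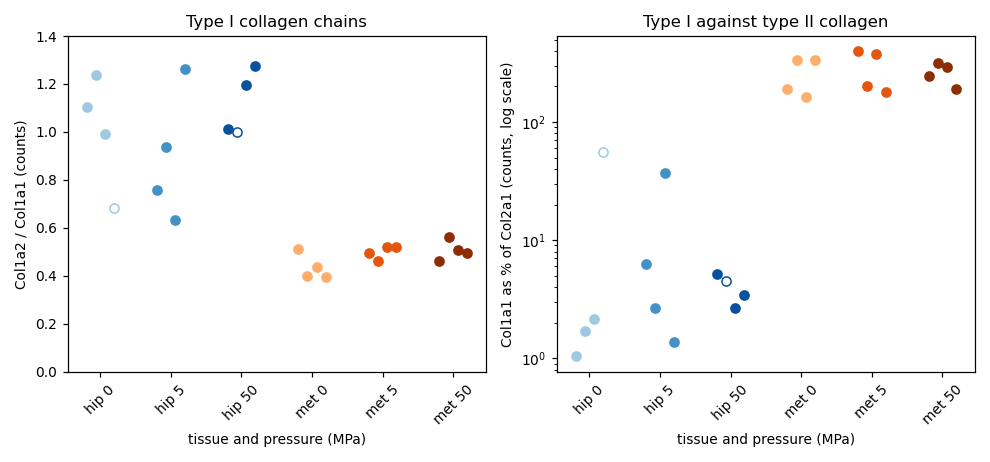
Ratio of Col1a2 to Col1a1 counts (left, y axis from 0) and Col1a1 counts as a percentage of Col2a1 counts (right, log scale) in each library of the 6 groups (x axis, MPa); open points are the 2 excluded libraries. All hip caps lie at or above 0.633 on the left and all metatarsals at or below 0.562, and on the right the highest used hip cap is 5 MPa replicate 3 at 37.2%.

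Per kilobase of transcript, the order of the levels also differed. In hip caps Sparc was followed by Ibsp (median 460 CPM per kb), Col1a2 (161) and Col1a1 (133). In metatarsals the order began with Col1a1 (558 CPM per kb), Col1a2 (314), Sparc (249) and Postn (177). The ranges of Col1a1 and Col1a2 overlapped in hip caps, from 83.6 to 904 and from 110 to 635 CPM per kb, and did not overlap in metatarsals, where they ran from 374 to 722 and from 212 to 365. Sp7, Dmp1, Phex and Bglap had medians of at most 25.3 CPM per kb in either tissue.

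Other genes of bone formation were read from lists in the same fit of the controls, of which Alpl, Mepe and Pth1r stand on more than 1, and where 14.6% of all genes tested were higher in hip caps and 16.4% lower. Of 15 regulators of osteoblasts, 6 were higher in hip caps, 4 were lower and 5 did not pass. Tnfrsf11b, the decoy receptor that restrains osteoclast formation, had the largest log2 fold change at 6.19 (SE 0.52), and Bmp4, a bone morphogenetic protein, had the smallest at -2.68 (SE 0.39). Runx2, which lies upstream of Sp7, had means of 274 and 50.6 CPM in hip cap and metatarsal controls (log2 fold change 2.71, SE 0.26, adjusted p = 1.45e-07 from edgeR).

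Of 13 further genes of mineralization, 11 were higher in hip caps and Bglap3 alone was lower, with a median log2 fold change of 3.00. Alpl, the alkaline phosphatase that releases phosphate, had means of 640 and 23.6 CPM in the controls (5.05, SE 0.49), and Spp1, the phosphoprotein osteopontin, had 2283 and 39.9 CPM (5.67, SE 0.40). Mepe, the gene with the largest fitted change, had a mean of 6.39 CPM in hip caps and 0.0134 CPM in metatarsals. Bglap3, an osteocalcin-related gene that shares 26.9% of its 31-base words with other genes, had means of 0.0848 and 1.20 CPM. Of 8 osteocyte genes 6 were higher and 0 were lower, among them Sost, an inhibitor of WNT signalling, with means of 30.1 and 0.0991 CPM.

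The genes listed under type I collagen biogenesis were more often higher than lower in hip caps, where Col1a1 was lower and Col2a1 higher. The list does not separate the processing of type I collagen from that of other collagens. Of 19 such genes 10 were higher in hip caps, 1 was lower and 8 did not pass, with a median log2 fold change of 0.80. Tent5a, which encodes a poly(A) polymerase acting on collagen messages, had the largest at 1.68 (SE 0.23). Serpinh1, the collagen chaperone HSP47, was at 1.60 (SE 0.21). Pcolce, which enhances the removal of the procollagen C-terminus, was the gene that was lower, at -1.54 (SE 0.41).

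The fibrous and perichondrial genes were mostly with Col1a1 and Postn. Of 18, 12 were lower in hip caps, 2 were higher and 4 did not pass, with a median of -1.41. Kera, the proteoglycan keratocan, had the smallest log2 fold change, with at most 0.272 CPM in hip cap controls against a mean of 27.9 CPM in metatarsal controls. Aspn, another small proteoglycan, had means of 1.69 and 232 CPM in hip cap and metatarsal controls, and Col3a1, the chain of type III collagen, had a log2 fold change of -3.18 (SE 0.45). Dcn, the proteoglycan decorin, went the other way with 1282 and 108 CPM. All 8 hypertrophic chondrocyte genes were higher in hip caps, with a median of 5.13, and Col10a1, which defines that stage, had means of 6609 and 5.23 CPM. Thus the genes of hypertrophic chondrocytes moved beside Ibsp and Sp7 in this comparison, and their part in it was not tested. Of the other cell types, 4 of 9 tested osteoclast genes, 1 of 6 macrophage genes and 0 of 3 erythroid genes were higher in hip caps, and 1 of 5 endothelial genes was lower.

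Pressure was compared with control within each tissue. At 5 MPa in hip caps 0 of the 9 genes passed the threshold in edgeR's quasi-likelihood test, where 0.0235% of all genes did, and DESeq2 called 0. Before adjustment 3 had a p-value under 0.05, namely Sp7, Ibsp and Postn, where 3314 of the 21283 genes had one. The libraries overlapped for all 10 genes, where 16.2% of all genes tested did not overlap. Sp7 had 88.3, 77.9, 78.7 and 93.4 CPM against the control range of 70 to 101 CPM. The groups overlapped and their means were 84.6 and 84 CPM, while the log2 fold change in the fit with batch terms was -0.86 (SE 0.33, adjusted p = 0.218 from edgeR). Ibsp had 947, 781, 1092 and 954 CPM, with a log2 fold change of -1.55 (SE 0.63, adjusted p = 0.256). Postn had 48, 32.4, 158 and 20.9 CPM, with 1.45 (SE 0.68, adjusted p = 0.32), and it passed only in the fit without batch terms (1.42, adjusted p = 0.0485). Without hip cap 5 MPa replicate 3 the number that passed was again 0, and Postn was at 0.58. The interval of Col1a1 was wide, from -0.25 to 2.90 around 1.33, and without that replicate, which had 5362 CPM, the value was 0.28.

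At 50 MPa 1 of the 9 genes fell in hip caps and 0 rose, where 5.5% of all genes tested passed the threshold (1.98% downwards and 3.51% upwards). The gene was Sp7, with 51.4, 45 and 59.7 CPM at 50 MPa against 80.7, 70 and 101 CPM in controls. The libraries did not overlap, and the log2 fold change was -1.08 (SE 0.29, adjusted p = 0.0341 from edgeR). Within the sequencing run that holds all 6 libraries it was -0.69 with an adjusted p of 0.343, and among hip caps alone it was -0.94 (adjusted p = 0.39). The fit within that run had no term for library type. With both tissues and runs it was also -0.69 without batch terms (adjusted p = 0.145) and with sequencing run alone (adjusted p = 0.1). The direction was the same in all 37 alternatives, and the call was lost in 12 of them. It was lost without hip cap control replicate 3, the unstranded library among the controls used (-1.48, adjusted p = 0.266 from edgeR). Leaving out hip cap 50 MPa replicate 1 or 3, metatarsal control replicate 1 or metatarsal 50 MPa replicate 4 also lost it. In those fits the value was -1.01 to -1.07, with adjusted p from 0.0545 to 0.0788.

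Sparc and Ibsp lay the same way without passing. Sparc had 5153, 4326 and 6613 CPM at 50 MPa, below all 3 controls, with a log2 fold change of -0.98 (SE 0.29, adjusted p = 0.0531 from edgeR). It passed the threshold in 10 of the 37 alternatives, among them DESeq2 (adjusted p = 0.00701) and the fit without hip cap 5 MPa replicate 3 (adjusted p = 0.0179). The last fit is counted there both on its own and as the fit without the libraries that stood apart. Ibsp had 707, 582 and 514 CPM, also below all controls, with -1.40 (SE 0.55, adjusted p = 0.137), and it passed in none of the alternatives. Together with Sp7, 3 of the 10 genes lay lower without overlap, where 7.56% of all genes tested did, and 15.8% did not overlap in either direction.

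Postn was the gene whose 50 MPa libraries all lay above the controls, where 8.19% of all genes tested did so. It had 65.3, 68.3 and 39.6 CPM against 20.7 to 30.2 CPM in the controls used. The excluded hip cap control replicate 4 had 184 CPM of Postn, above every 50 MPa library. The log2 fold change of 1.23 (SE 0.64, adjusted p = 0.261 from edgeR) passed only without hip cap 5 MPa replicate 3 (1.19, adjusted p = 0.0319). Over the 37 alternatives it ranged from 0.34 to 2.26.

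The remaining genes overlapped between 50 MPa and control. Col1a1 had 1072, 662 and 724 CPM, with a log2 fold change of -0.22 in the fit with batch terms and a 95% interval from -1.68 to 1.24, while its group means lay the other way, at 819.5 CPM against 665 CPM in controls. The interval of Col1a2 ran from -1.10 to 1.11 around 0.01, and both intervals include a 2-fold change in either direction. Dmp1 had 13.5, 7.7 and 9.28 CPM (-0.23, SE 0.42) and Phex had 12.7, 11.4 and 17.6 CPM (-0.31, SE 0.24). Without batch terms Phex was at -0.96 and passed (adjusted p = 0.0288), and with sequencing run alone it was at -0.96 as well (adjusted p = 0.0317). Bglap had 22, 34 and 21 counts at 50 MPa, or 2.32, 2.36 and 6.50 CPM, the first 2 within the control range of 2 to 3.26 CPM and the last above it. With Bglap2 added the sums were 30, 44 and 26 counts.

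Other genes moved in the same hip cap comparison. Of the 19 genes listed under type I collagen biogenesis 4 fell and 0 rose at 50 MPa, where 1.98% of all genes fell. They were Serpinh1 (-1.04, SE 0.21), Fkbp10 (-0.99, SE 0.19), P3h1 (-0.82, SE 0.21) and Ppib (-0.68, SE 0.19), which encode chaperones and a prolyl hydroxylase of the endoplasmic reticulum. Of 13 mineralization genes Fam20c, a kinase of secreted phosphoproteins, fell (-0.99, SE 0.27), of 8 osteocyte genes Fbln7 fell (-1.02, SE 0.30), and of 15 regulators of osteoblasts 0 passed. Of 12 chondrocyte genes Sox9 and Comp fell, and the summed level of the list was 34640 to 39950 CPM at 50 MPa against 52010 to 82830 CPM in controls. Summed osteoclast genes were 651 to 1860 CPM against 424 to 627 CPM, and summed macrophage genes were 92.5 to 108 CPM against 32.1 to 49 CPM. Of the lists, 2 of 6 macrophage genes (Cd14 and Cd68), 1 of 8 skeletal muscle genes (Ttn) and 1 of 18 fibrous genes (Aspn) rose, and 0 of 9 osteoclast, 0 of 8 hypertrophic chondrocyte, 0 of 5 endothelial and 0 of 3 erythroid genes passed. Within hip caps alone and within 1 run 0 genes of the whole table passed in this comparison, and 2 passed with all 24 libraries. The part of these cell types in the values of Sp7, Sparc, Ibsp and Postn was not tested.

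**Figure D4:**
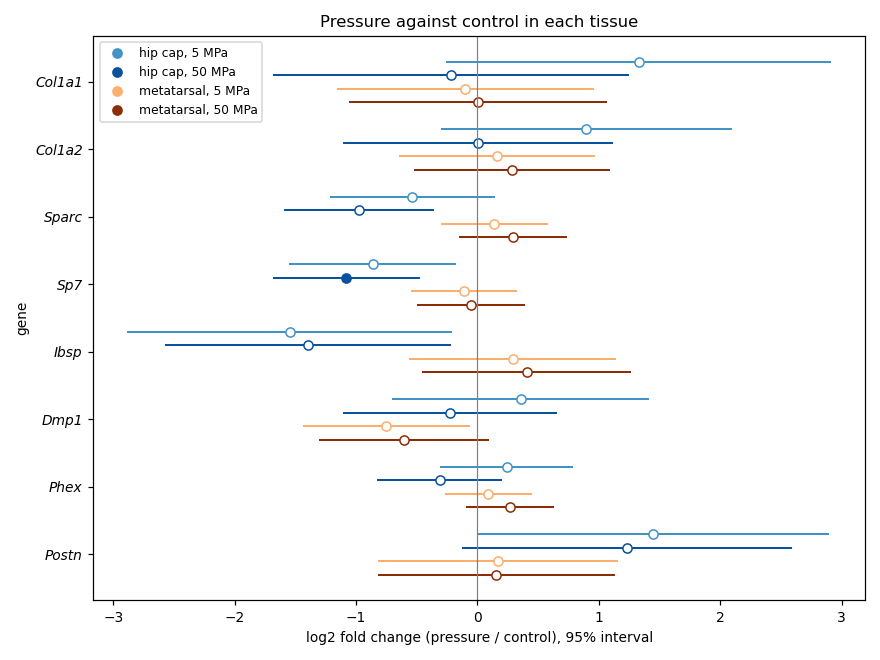
Log2 fold change of pressure over control (x axis, lines are 95% intervals) for 8 genes (y axis) in hip caps and metatarsals at 5 and 50 MPa; Bglap is left out because its metatarsal libraries hold at most 2 counts. The filled point, Sp7 in hip caps at 50 MPa at -1.08, is the value that passed the threshold.

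In metatarsals 0 of the 9 genes passed at either pressure in edgeR's quasi-likelihood test, and 0 passed in DESeq2. Of all genes tested 0% passed at each pressure, and before adjustment 1 of the 9 had a p-value under 0.05 at 5 MPa, which was Dmp1, and 0 had at 50 MPa. Dmp1 had 1.08, 0.595, 1.06 and 0.51 CPM at 5 MPa, with a log2 fold change of -0.75 (SE 0.33, adjusted p = 1). The interval of Phex ran from -0.08 to 0.62 at 50 MPa and that of Sparc from -0.15 to 0.73. For Col1a1, with 3767, 3287, 3326 and 3957 CPM at 50 MPa, the interval ran from -1.05 to 1.06 around 0.00. The levels overlapped with those of the controls for all 10 genes at both pressures, where 2.88% of all genes tested did not overlap at 5 MPa and 4.48% did not at 50 MPa.

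The difference of the responses was tested as an interaction of tissue and pressure. At 5 MPa 0 of the 9 genes passed in edgeR's quasi-likelihood test, where 0.0188% of all genes did, with 2 at an unadjusted p-value under 0.05 (2543 of all 21283), and DESeq2 called 0. At 50 MPa 0 passed, where 0.442% of all genes did, with 4 at an unadjusted p-value under 0.05 (4051 of all 21283), namely Sparc, Sp7, Ibsp and Phex. DESeq2 called 2, which were Sparc and Ibsp. The interaction of Sparc was -1.27 (SE 0.33, adjusted p = 0.0692 from edgeR), that is, a more negative response in hip caps, and it passed without hip cap control replicate 2, hip cap 5 MPa replicate 3 or hip cap 50 MPa replicate 4 (adjusted p = 0.0131, 0.0271 and 0.0202). Of the lists, 3 of the 19 genes of collagen biogenesis passed with a lower response in hip caps, which were Fkbp10, Serpinh1 and Ppib, where 0.179% of all genes did. Tnfsf11, the ligand that drives osteoclast formation, and Ttn passed in the other direction. No gene of these lists passed for the interaction at 5 MPa, in hip caps at 5 MPa or in metatarsals. For Sp7 the interaction was -1.03 (SE 0.32, adjusted p = 0.102) and for Ibsp it was -1.80 (SE 0.63, adjusted p = 0.133).

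For Col1a1, Ibsp and Postn the genes with the most similar profile were sought among 13946 genes, as the root mean square difference of log2 CPM over the 6 group means after centring each gene. Nearest to Col1a1 were Ebf1 (difference 0.08), Rab30 (0.11) and Ifi209 (0.12). Ifi209 was weakly expressed, with group means of 0.053, 1.16 and 0.139 CPM in hip caps at 0, 5 and 50 MPa. In metatarsals its means were 1.76, 1.84 and 1.65 CPM. The prior of 2 counts narrows differences at such low levels, so that likeness does not carry over to fold changes of the levels. Nearest to Ibsp were Cnmd (0.11), Agt (0.14) and Corin (0.19), and Cnmd, which is on the list of chondrocyte genes, had group means of 890, 609 and 428 CPM in hip caps at 0, 5 and 50 MPa. Nearest to Postn were Ddx60 (0.07), Lgi2 (0.12) and Tead2 (0.15). Among the members themselves the closest pairs were Sparc with Ibsp and Sp7 with Ibsp (0.34 each), and Col1a1 and Col1a2 differed by 0.58. The likeness is a description over 6 group means, of which 3 come from each tissue.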

How the data were processed

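RNA depleted of ribosomal RNA was sequenced from 24 explant cultures in 6 groups of 4, mapped to groups from the sample labels. The labels write the pressures in mPa, and the study's unit, MPa, was used. Per the submitters' processing notes and the study's methods the authors trimmed reads with Trim Galore 0.6.5 (quality 20, minimum length 20), quantified them with kallisto against GRCm39, and brought them to gene level with tximport. What they deposited are estimated counts without normalization, which were rounded here. All 52178 genes carry identifiers, of which 48845 were matched to symbols in a table of gene names. Transcript lengths and coding sequences came from GENCODE M21 (GRCm38). RNA was partly degraded in all samples. Totals of 4185557 to 25104484 counts limit the precision of weak genes, and floors of 3 counts cover counting error only.

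The 10 genes and the other gene lists were chosen with earlier results of these data known. Genes passing edgeR's filterByExpr over the 6 groups were scaled by TMM and fitted with glmQLFit (edgeR 4.0.16, R 4.3.3, robust, legacy set to FALSE, a setting fixed after both versions had been run and chosen because it was the one that gave the counts of an earlier analysis), with terms for group, sequencing run and library type over 22 libraries. All tests are two-sided with Benjamini-Hochberg adjustment within each comparison, and each standard error is the size of the log2 fold change divided by the root of its F value. CPM uses the same scaling. The ratio of Col1a2 to Col1a1 took a prior of 0.5 counts and a permutation test. The fit was tested on simulated data that held no effect of run or library type. That test therefore cannot show how well the batch terms separate these from pressure and tissue. P-values set a difference against the spread between libraries. For metatarsals this need not be a spread between litters, since these were not recorded. List genes were named for their largest or smallest log2 fold change or as defining genes, and otherwise, as for Fkbp10, P3h1, Ppib, Fam20c, Fbln7, Serpinh1, Spp1, Aspn, Sox9, Comp, Cd14, Cd68, Ttn and Tnfsf11, after their values were seen. Likeness used a prior of 2 counts and genes of at least 1 CPM. The alternatives were DESeq2 1.42.0, other scalings, filters and batch terms, all 24 libraries, a replicate block, single tissues and runs, and leaving out each library.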

Additional observations from a re-analysis of the deposited data

Results flagged for a closer look

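In 59 sets of 4 libraries (a gene in a group) the distance of the highest or the lowest library from its nearest neighbour was compared with the whole range, and 7 sets had a library farther off than Dixon's critical value, where about 3 would be by chance, at 1 in 20 groups. Hip cap control replicate 4, which the study left out, was the highest for Col1a1, at 3615 CPM against 971 for the next, and for Postn, at 184 CPM against 30.2. Hip cap 50 MPa replicate 2, also left out, was the highest for Phex, at 51.6 CPM against 17.6. Metatarsal control replicate 3 was the highest for Col1a2, at 1871 CPM against 1191. The other 3 were single libraries with a few counts in a group otherwise at 0, namely Bglap in metatarsal control replicate 3 (0.114 CPM) and in metatarsal 5 MPa replicate 2 (0.0541 CPM), and Bglap2 in metatarsal 5 MPa replicate 4 (0.127 CPM). In such a group the distance equals the whole range by construction, and the excluded libraries had been set aside beforehand for standing apart. The comparison of 7 with about 3 therefore cannot show an excess.

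The excluded hip cap 50 MPa replicate 2 was also above every hip cap control used for Phex (51.6 CPM against at most 36.7) and for Postn (45.9 CPM against at most 30.2). In the other direction it had the lowest hip cap levels of Sparc (1813 CPM), Sp7 (13 CPM) and Ibsp (220 CPM). The excluded hip cap control replicate 4 lay low as well, with 2626 CPM of Sparc and 43.1 CPM of Sp7, below the 50 MPa libraries used, and 524 CPM of Ibsp, within their range of 514 to 707 CPM.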

How the results depend on the processing

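Over 2876 alternative values of the 81 gene values, 2808 kept their side of the threshold, 30 lost a call, 37 gained it and 1 reversed, which was Phex between the tissues at 5 MPa by library sizes alone (-0.0565, adjusted p = 0.838). A further 114 values that passed in neither case changed sign. For hip caps at 50 against 0 MPa the members past the threshold numbered 1 in the reported fit. They numbered 0 with all 24 libraries, with library type alone, with library sizes alone, within 1 tissue and within 1 run. They numbered 2 in DESeq2 and with at least 10 counts in every library. Without the libraries that stood apart, an alternative chosen after seeing the data, they numbered 3 (Sp7, Sparc and Postn). The excluded libraries were outside the reported fit already, so this repeats the fit without hip cap 5 MPa replicate 3. Its values are therefore counted again among the alternatives. Without batch terms the number stayed at 1, with Phex in place of Sp7, and with sequencing run alone the same exchange was seen. At 5 MPa in hip caps the number was 1 without batch terms. For the interaction at 50 MPa it was 2 in DESeq2, 1 with at least 10 counts in every library and 1 without the libraries that stood apart. The cause was not tested.

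When each of the 22 libraries was left out, the members past the threshold ranged from 5 to 8, 7 to 9 and 4 to 8 between the tissues at 0, 5 and 50 MPa, from 0 to 3 for hip caps at 50 MPa and from 0 to 1 for its interaction, and stayed at 0 for hip caps at 5 MPa, for metatarsals at each pressure and for the interaction at 5 MPa. The lowest number at 0 MPa came without metatarsal control replicate 1 and at 50 MPa without metatarsal 50 MPa replicate 4, the libraries that tie the runs together, and the highest at 0 and 5 MPa without hip cap 5 MPa replicate 3. The difference of the Col1a2 to Col1a1 ratio ranged from 1.06 to 1.17. The legacy method of edgeR, also added after seeing the data, changed none of the member counts, but it moved the genes called for the interaction at 50 MPa from 94 to 28. DESeq2 called 1277 there, and for hip caps at 50 MPa it called 2403 genes against 1170, where all 24 libraries gave 2 and 1 run alone gave 0. For hip caps at 5 MPa the calls were 5, against 555 in DESeq2 and 2422 without batch terms.

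Libraries of equal replicate number were not treated as paired, since the study's methods record no pairing. The correlations of their residuals ran from -0.366 to 0.351 with a median of 0.015 over 50 pairs. With so few libraries in a group these cannot exclude a pairing. With a replicate block the members past the threshold were 8, 7 and 7 between the tissues, 1 for hip caps at 50 MPa and 0 elsewhere, and Phex was gained at 0 MPa. Of all genes, the block moved those called for hip caps at 5 MPa from 5 to 219. Depth limited Bglap and Bglap2, and at least 10 counts in every library left 7 members to test.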
